A study of Arabidopsis thaliana with 12 samples.

Results

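The comparison set the 2 arrays of day 4 against the 2 arrays of day 2 in a culture of Arabidopsis cells on its way to forming tracheary elements, the water-conducting cells of xylem. These are 4 of the 12 arrays of a time course that holds 2 arrays on each of days 0, 2, 4, 6, 8 and 10. All cells were suspension cells of the accession Col-0, and transcripts were read on Affymetrix ATH1 arrays. Cells of days 2 and 4 had the same treatment: 7.5 ml of culture, 7 days after its last transfer, was added to 42.5 ml of new medium with sucrose at 3%, boric acid at 10 mM and the brassinosteroid brassinolide at 1 uM. The maintenance medium in the labels holds the synthetic auxin 2,4-D, which is absent from the labels' list for the induction medium. The labelled mean temperature was 27 C for day 2 and 22 C for day 4, so time in induction medium and temperature cannot be told apart in this comparison. Whether both arrays of a day were made from independent cultures is not stated, so the p-values speak to the scatter between arrays, which may be technical only. How many cells had formed tracheary elements by each day is not stated in the labels.

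A cell that becomes a tracheary element first expands, then lays down bands of secondary wall made of cellulose, xylan and lignin along tracks set by cortical microtubules, and finally digests its own contents when the vacuole bursts. Brassinosteroids are known to promote the entry into this last phase, and auxin and cytokinin to set up the vascular cells from which xylem forms. Cultures of this kind are used because many cells pass through these steps at about the same time.

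A probe set was kept where both arrays of day 2, both of day 4, or all 4, had a signal at or above the 40th percentile of their array, here called bright; below it a signal is called dim. This kept 13992 of the 22746 probe sets that are not controls, and they read 7572 of 13355 genes that the annotation names alone for a probe set. The median signal of the 4 arrays lay between 34.6 and 37.4 on the deposited scale, which has no physical unit. Over the tested probe sets, log2 signals correlated at 0.983 between the 2 arrays of day 2, at 0.984 between those of day 4 and at 0.833 to 0.842 between arrays of different days, as a description of these arrays. All tests are limma fits of log2 signal over the 12 arrays and p-values were adjusted over the 13992 probe sets by the method of Benjamini and Hochberg. A difference is day 4 minus day 2 in log2 signal ± the standard error of that fit, with n = 2 arrays a day. It counts as a call where the adjusted p was below 0.05. Where 1 or both arrays of a day were dim, signals below the 40th percentile were set to it and only "at least N-fold" is given, as a ratio of geometric means over the 2 arrays of each day. That bound takes nothing from how low the dim arrays were.

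Between days 2 and 4 the transcript levels of 6657 probe sets changed, 47.6% of those tested. Of them, 3284 (23.5%) were higher and 3373 (24.1%) lower on day 4, and the median difference over all tested probe sets was -0.01. Differences of 2-fold or more numbered 1015 upward and 842 downward, including dim genes at their fitted value. Among the higher probe sets 520 had a dim array on day 2, and among the lower ones 370 had a dim array on day 4. Both day 4 arrays lay above both day 2 arrays for all 3284 higher probe sets, and below them for 3372 of 3373 lower ones. The arrays of the 2 days also lay apart in 10355 of all 13992 tested probe sets. Arrays that do not overlap are thus usual here and do not set a gene off from the background. With nearly every other probe set called, a gene list in which about 23.5% of the members rose and 24.1% fell does not stand out from the background. Growth to differentiation is the heading given to the comparison, not a sample label, and it was not tested. Of the tested genes described below, 6 of 9 expansins and 7 of 9 genes of RNA polymerase I and ribosomal RNA processing fell. Among the others, 3 of 4 xylan genes and all 3 vessel cell death genes rose. Of 19 genes of a mitotic and chromosome list 10 rose and 1 fell. The lists were chosen with earlier results of these data known, some with values in view. Their counts are thus no test of the heading. Each list is given as counts and a median difference to be read beside these values.

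**Figure D1:**
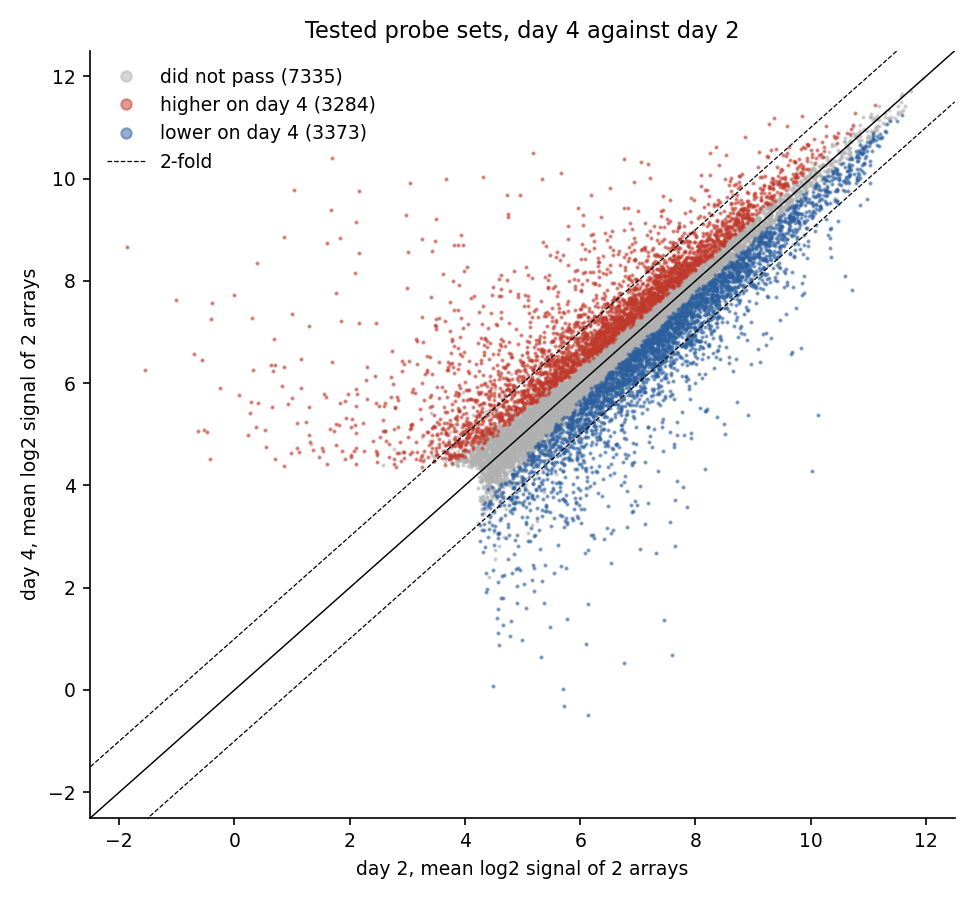
Mean log2 signal of the 2 day 4 arrays (vertical axis) against that of the 2 day 2 arrays (horizontal axis) for the 13992 tested probe sets, red where higher on day 4 (3284), blue where lower (3373) and grey where not called (7335). The solid line marks equal signal and the dashed lines a 2-fold difference; called points lie on both sides of it, in similar numbers.

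Most tested genes of xylan and lignin synthesis and of vessel cell death rose on day 4. In bulk RNA more cells of a type and more RNA per cell cannot be told apart, here and below. All 3 tested genes of the vessel cell death list were called higher, of 9 listed and 4 read by a probe set. AT4G04460 had signals of 552 and 538 on day 2 against 1141 and 1258 on day 4 (1.14 ± 0.12, adjusted p = 1.37e-05). Its rise did not last: the mean was 487 on day 6 and 236 on day 10, below the 545 of day 2. AT4G18425 had 19.9 and 15.9 on the day 2 arrays and 190.4 and 227 on those of day 4, with 1 day 2 array dim, at least 11.2-fold higher. Its mean was higher still on day 6 (484) and 151 on day 10. The serine carboxypeptidase-like gene scpl48 had 725 and 868 on day 2 against 1449.5 and 1726 on day 4 (1.0 ± 0.13, adjusted p = 6.79e-05). In each of the 3 the arrays of the days did not overlap, and the annotation gives the loci AT4G04460 and AT4G18425 no other name.

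Vacuolar processing enzymes, cysteine proteases that mature vacuolar hydrolases and act in vacuole-driven cell death, were also higher. ALPHA-VPE had 45.8 and 43.6 on the day 2 arrays and 335 and 395 on those of day 4 (3.02 ± 0.12, adjusted p = 1.08e-08), and GAMMA-VPE 350.4 and 295 on day 2 against 737 and 722 on day 4 (1.18 ± 0.08, adjusted p = 8.32e-07). Neither gene's day 2 and day 4 arrays overlapped, and the 2 other listed members were not tested. Of 14 carboxypeptidases, subtilases and aspartic proteases named in the annotation, scpl48 among them, 6 rose and 4 fell (median 0.22). Among the called genes of this list the largest rises were those of scpl20 (1.54 ± 0.19), SCPL45 (1.34 ± 0.13) and scpl48, while scpl35 was at least 2.54-fold and scpl28 at least 1.39-fold lower, both dim on day 4. Among 9 ATG8 and other autophagy genes, whose products build the vesicles that carry cytoplasm into the vacuole, 5 rose and none fell (median 0.29). ATG8H was at least 3.72-fold higher with 1 dim array on day 2, and ATG8E (1.05 ± 0.11) and ATG8F (0.70 ± 0.06) rose from brighter levels; with arrays centred on their medians the list stood at 4 higher and 1 lower, and without replicate 1 of day 4 at 3 higher.

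IRX15-L and IRX15, both needed for normal xylan in secondary walls, were dim on every day 2 array and bright on every day 4 array. IRX15-L had 1.67 and 1.53 on the day 2 arrays and 59.2 and 95.7 on those of day 4, at least 4.06-fold higher. IRX15 had 3.97 and 0.445 on day 2 against 35.4 and 67.3 on day 4, at least 2.64-fold higher. GUT2, the xylan synthase subunit also called IRX10, had 48.9 and 47.2 on the day 2 arrays and 107 and 148 on those of day 4 (1.39 ± 0.16, adjusted p = 3.30e-05), with no overlap. Its close relative GUT1 had 152 and 152 on day 2 against 177 and 169 on day 4 and did not pass (0.19 ± 0.10, adjusted p = 0.134). All 4 read members of the 11 listed were thus tested, and 3 of 4 rose. The 6 listed genes of secondary wall cellulose synthesis were not analysed here.

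Lignin genes followed the same direction with smaller or bounded values. HCT, the shikimate hydroxycinnamoyl transferase of monolignol synthesis, had 199 and 163 on the day 2 arrays and 245 and 309.6 on those of day 4 (0.61 ± 0.13, adjusted p = 0.00243), and AT5G51890, a locus of the lignin list, was at least 4.52-fold higher, with 16 and 11.6 on day 2 against 76 and 92.4 on day 4. These are 2 of 22 listed genes; 4 were read and 2 tested. In a wider list of 9 phenylpropanoid and peroxidase genes drawn from the annotation's names, 6 rose and 1 fell (median 1.09, or 0.79 with dim genes at their bound). The class III peroxidase PRXR1 had 119.9 and 124 on the day 2 arrays and 465 and 449 on those of day 4 (1.91 ± 0.09, adjusted p = 4.48e-08), and PRX52, a peroxidase known for its part in lignin polymerisation, was at least 2.53-fold higher with both day 2 arrays dim. ALDH2C4, which oxidises coniferaldehyde and sinapaldehyde to the corresponding acids, was the gene that fell, at least 3.52-fold with 1 day 4 array dim.

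Other makers of wall polysaccharides rose in part. Of 13 TRICHOME BIREFRINGENCE-LIKE (TBL) genes, a family that acetylates wall polymers, 7 rose and 3 fell (median 0.37). Leaving out replicate 2 of day 4 gave 4 higher and 1 lower, leaving out replicate 1 of day 2 gave 5 higher and 1 lower, and the fit of the 4 arrays alone gave 6 higher and 1 lower. TBL34, a xylan acetyltransferase, had 6.35 and 10.2 on day 2 against 343 and 419 on day 4, at least 20.5-fold higher with both day 2 arrays dim. TBL36 (1.66 ± 0.24) and AT2G31110, also named TBL40 (1.34 ± 0.11), rose from bright levels, and TBL39 fell, with 326 and 348 on the day 2 arrays and 79.9 and 126 on those of day 4 (-1.75 ± 0.17, adjusted p = 9.39e-06). TBL26 was also lower (-0.57 ± 0.19) but missed the threshold in the fit of the 4 arrays alone and when replicate 1 of day 2, or 2 of day 4, was left out. All 3 glucuronosyltransferases of arabinogalactan proteins rose: AT2G37585, GlcA transferase 14C (0.85 ± 0.15), AT5G39990, 14A (0.49 ± 0.10), and AT5G15050, 14B (0.48 ± 0.14). The last missed the threshold when replicate 2 of either day was left out. Among 4 xyloglucan backbone synthases, ATCSLC08 (0.80 ± 0.20, lost when replicate 2 of either day was left out) and CSLC5 (0.46 ± 0.10) rose, while CSLC6 (0.09 ± 0.11) and CSLC04 (-0.16 ± 0.10) did not pass. Of 4 endoglucanases of glycosyl hydrolase family 9, GH9B7 rose (0.52 ± 0.09); GH9A3 (0.42 ± 0.18), GH9B5 (-0.11 ± 0.22) and GH9C2 (-0.32 ± 0.20) did not pass. PMEPCRF, a pectin methylesterase, was at least 1.38-fold higher with both day 2 arrays dim.

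**Figure D2:**
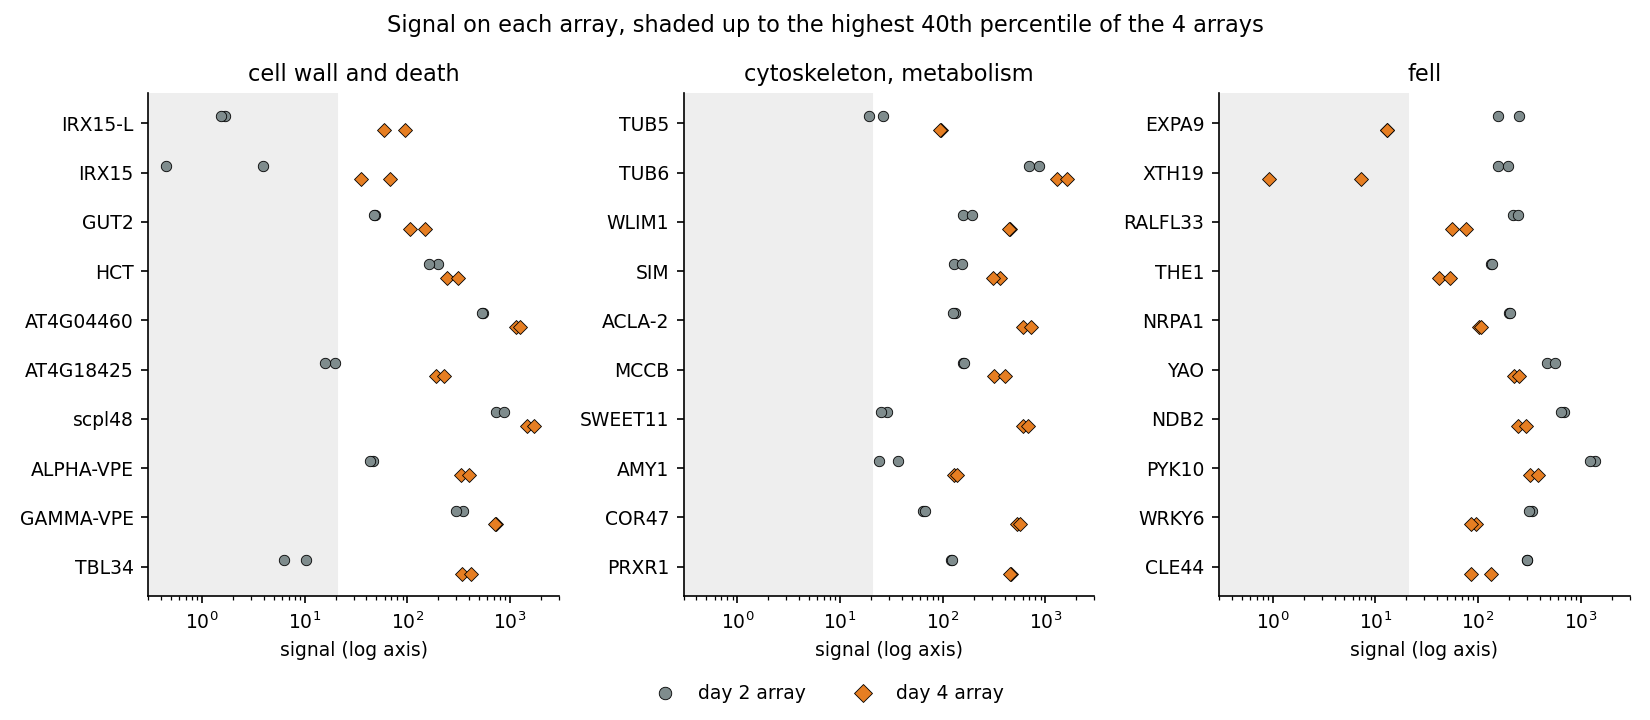
Signal on each of the 2 day 2 arrays (grey circles) and 2 day 4 arrays (orange diamonds) on a log axis, for 10 genes of cell wall and cell death, 10 of the cytoskeleton and metabolism and 10 that fell; shading covers signals up to the highest 40th percentile of the 4 arrays. In all 30 genes the 2 days do not overlap, and IRX15-L, IRX15, AT4G18425, TBL34, TUB5, EXPA9 and XTH19 have 1 or both arrays of a day in the shaded range.

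Genes of the microtubule and actin cytoskeleton rose with the wall genes. Of 19 microtubule genes drawn from the annotation's names, 12 rose and none fell (median 0.52). The counts were 11 and none with quantile normalization or with arrays centred on their medians. With no variance trend 11 rose and 1 fell. Fewer rose when any 1 of the arrays of days 2 and 4 was left out. The beta-tubulin TUB5 had 19 and 26.5 on day 2 against 95.4 and 94.9 on day 4, at least 4.15-fold higher with 1 day 2 array dim. TRM15, which carries a motif that binds the microtubule-organising protein TON1, had 28.2 and 23.9 on the day 2 arrays and 105 and 107 on those of day 4 (2.03 ± 0.13, adjusted p = 3.85e-07), and SP1L3, a relative of the cortical microtubule protein SPIRAL1, rose by 1.11 ± 0.12. For these 3 the arrays of the days lay apart. Of the 5 tubulins in a narrower list, TUA6 (0.70 ± 0.09) and TUB7 (0.43 ± 0.11) rose, TUB1 was just past the threshold (0.38 ± 0.14, adjusted p = 0.0492) and was lost under 10 of the alternatives, and TUB9 did not pass (-0.14 ± 0.08). TUB7 missed the threshold when replicate 2 of either day was left out, and without replicate 2 of day 4 the narrower list had 2 higher. KINESIN-13A, a microtubule-depolymerising kinesin of xylem pits, rose by 0.68 ± 0.09.

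All 4 LIM-domain genes, whose products bundle actin filaments, were higher (median 0.72). WLIM1 had 159 and 192 on day 2 against 455 and 446 on day 4 (1.36 ± 0.13, adjusted p = 9.00e-06), with no overlap of the days. WLIM2a (0.97 ± 0.22) and WLIM2b (0.30 ± 0.08) rose as well, and so did PLIM2b (0.47 ± 0.15). Without replicate 2 of day 2, 2 of the 4 rose; WLIM2b did not pass then, nor PLIM2b in the fit of the 4 arrays alone or when replicate 2 of either day was left out.

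Genes of a mitotic and chromosome list rose more often than they fell, whereas histone H2B genes fell. The list holds regulators such as SIM, described below, as well as mitotic proteins, so its count does not measure division. Of 19 mitotic and chromosome genes 10 rose and 1 fell (median 0.48). 3xHMG-box1, a protein of mitotic chromosomes, was at least 2.36-fold higher with 1 day 2 array dim. SIM (SIAMESE), an inhibitor of cyclin-dependent kinases that promotes endoreduplication, had 128 and 156 on the day 2 arrays and 363 and 311 on those of day 4 (1.25 ± 0.11, adjusted p = 4.21e-06), and SKP2A, an F-box protein that marks cell cycle regulators for breakdown, rose by 1.05 ± 0.11. In both of these the days lay apart. BUB3.2, of the spindle checkpoint family, was the gene that fell (-0.43 ± 0.10). The Aurora kinases were split: AUR2 rose, with 26.9 and 18.8 on day 2 against 42 and 48.7 on day 4 (1.01 ± 0.21, adjusted p = 0.00232), and AUR1 (0.40 ± 0.17) and AUR3 (-0.02 ± 0.13) did not pass. All 4 histone H2B genes were lower (median -0.62), namely HTB1 (-0.82 ± 0.10), HTB2 (-0.83 ± 0.20), HTB11 (-0.41 ± 0.12) and HTB4 (-0.25 ± 0.09). H2B genes are near-identical copies, so these probe sets may share targets; HTB11 missed the threshold when replicate 2 of either day was left out, and HTB4 was lost under 6 alternatives, so that 2 of the 4 were lower without replicate 2 of either day. The other histone genes tested, HON4 (-0.09 ± 0.12) and the centromeric histone HTR12 (-0.27 ± 0.16), did not pass.

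Expansins, which loosen primary walls during growth, mostly fell. Of 9 tested, 6 fell and 1 rose (median -0.98, or -0.69 with dim genes at their bound); 19 were read. EXPA9 had 158 and 252 on the day 2 arrays and 13.1 and 13 on those of day 4, at least 10-fold lower with both day 4 arrays dim. EXPA8 was at least 3.81-fold and EXLA2 at least 2.07-fold lower, again with both day 4 arrays dim. EXPA4 went the other way, with 245 and 256 on day 2 against 692 and 856 on day 4 (1.62 ± 0.24, adjusted p = 2.37e-04), and its days did not overlap. The 3 xyloglucan endotransglucosylase/hydrolase genes, whose products cut and rejoin xyloglucan chains, all fell: EXGT-A3 (-0.93 ± 0.09), XTH18 at least 2.66-fold and XTH19 at least 8.75-fold, the last with 156 and 195 on the day 2 arrays and 0.924 and 7.18 on those of day 4 and both its day 4 arrays dim.

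Genes for RALF (rapid alkalinisation factor) peptides and their receptor kinases were mostly lower on day 4. Of 7 such genes, 5 fell and 1 rose (median -1.26). RALFL33 had 216 and 244 on day 2 against 56 and 77.1 on day 4 (-1.81 ± 0.18, adjusted p = 1.03e-05) and RALFL34 fell by 1.52 ± 0.20. THE1 (THESEUS1), a receptor kinase that monitors wall integrity, had 135 and 137 on the day 2 arrays and 41.3 and 53 on those of day 4 (-1.54 ± 0.30, adjusted p = 0.00126), with day 4 below day 2 in both arrays. RALFL24 was the gene that rose, with 40 and 53 on day 2 against 120.5 and 131 on day 4 (1.45 ± 0.18, adjusted p = 4.82e-05).

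Genes of RNA polymerases and of ribosomal RNA processing mostly fell. Of 9 genes of RNA polymerase I and ribosomal RNA processing, 7 fell and none rose (median -0.70), and of 8 subunit genes of RNA polymerases II and III, 7 fell and none rose (median -0.58, or -0.54 with the dim gene at its bound). Without replicate 2 of day 2, 4 of the latter 8 fell. YAO, a nucleolar protein of ribosomal RNA processing, had 473 and 562 on the day 2 arrays and 226 and 248 on those of day 4 (-1.12 ± 0.09, adjusted p = 2.82e-06), RRP41L fell by 1.10 ± 0.13, and NRPA1, the largest subunit of polymerase I, had 201 and 204 on day 2 against 103 and 107 on day 4 (-0.95 ± 0.09, adjusted p = 1.10e-05). Among subunits of the other polymerases the largest falls were those of NRPC2, the second largest subunit of polymerase III (156 and 183 on the day 2 arrays and 70 and 76.7 on those of day 4; -1.21 ± 0.13, adjusted p = 1.89e-05), NRPB12 (-0.92 ± 0.10) and NRPB7 (-0.72 ± 0.11). In all 6 genes the day 4 arrays lay below those of day 2. AT5G14520, the PESCADILLO gene of large ribosomal subunit assembly, fell by 0.70 ± 0.07.

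Splicing, RNA decay and respiration showed smaller falls. Of 15 splicing and decay genes 8 fell and none rose (median -0.29): Y14, a core protein of the exon junction complex (-0.88 ± 0.10), MAC3A of the Prp19 complex (-0.61 ± 0.10) and LSM1B of the decapping machinery (-0.51 ± 0.16), which was lost when any of the 4 arrays was left out. The number of this list that fell was 3 without replicate 2 of day 2 and 4 without either array of day 4. Of 15 nuclear genes of respiration 9 fell and none rose (median -0.32). The number that fell was 8 with quantile normalization and 10 with arrays centred on their medians. Fewer fell when any 1 of the arrays of days 2 and 4 was left out. NDB2, an alternative NAD(P)H dehydrogenase of the mitochondrial membrane, had 686 and 645 on day 2 against 245 and 295 on day 4 (-1.30 ± 0.13, adjusted p = 1.16e-05). CYTC-2, a cytochrome c, fell by 1.06 ± 0.15 and IDH-VI, a subunit of isocitrate dehydrogenase, fell by 0.78 ± 0.09; the days lay apart in these 3. Of 14 genes of the mitochondrial genome 3 fell, no larger a share than over all probe sets (median -0.16): ccb452 (-1.0 ± 0.12, from a probe set that may match several transcripts), ccb203 (-0.80 ± 0.22, lost when replicate 1 of day 2, or 2 of day 4, was left out) and nad4L (-0.77 ± 0.13).

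Genes of ATP-citrate lyase and most tested genes of branched-chain amino acid and lysine breakdown rose. All 4 genes of ATP-citrate lyase, which cleaves citrate to supply acetyl-CoA in the cytosol, were higher (median 1.04). ACLA-2 had 130.5 and 127 on the day 2 arrays and 604 and 730.1 on those of day 4 (2.37 ± 0.11, adjusted p = 4.49e-08) and ACLA-1 427 and 469 on day 2 against 1033 and 1136 on day 4 (1.27 ± 0.09, adjusted p = 9.75e-07). ACLB-1 (0.80 ± 0.09) and ACLA-3 (0.43 ± 0.10) rose by less, and none of the 4 overlapped between days. On day 0 the means of ACLB-1 (310) and ACLA-3 (379) were above their day 4 means (189 and 236). Those of ACLA-2 (230) and ACLA-1 (690) were below their day 4 means (667 and 1084). Of 9 genes that break down branched-chain amino acids and lysine, 8 rose and none fell (median 0.77). MCCA and MCCB, the subunits of methylcrotonyl-CoA carboxylase in leucine breakdown, were at least 3.78-fold higher (1 day 2 array dim) and higher by 1.19 ± 0.11, with MCCB at 157 and 160.1 on the day 2 arrays and 319 and 408 on those of day 4. D2HGDH, a D-2-hydroxyglutarate dehydrogenase, rose by 1.30 ± 0.12.

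Genes that release nitrogen from purines and asparagine also rose in part, 4 of 6 with 1 lower (median 0.45). The allantoinase ALN rose (1.15 ± 0.10, adjusted p = 4.99e-06), as did the asparaginases ASPGA1 (0.55 ± 0.08) and ASPGB1 (0.36 ± 0.12); the latter did not pass with arrays centred on their medians, with no variance trend, in the 4 arrays alone, or when replicate 2 of either day was left out. AAH, allantoate amidohydrolase, had 42 and 16.5 on day 2 against 72.1 and 66.2 on day 4 with 1 day 2 array dim, and without that array the difference was 0.72. UGLYAH did not pass (0.27 ± 0.23), and urease (URE) fell by 0.96 ± 0.12. Of 3 starch breakdown genes, the alpha-amylase AMY1 had 36.6 and 23.8 on the day 2 arrays and 128 and 138 on those of day 4 (2.17 ± 0.28, adjusted p = 6.67e-05), PWD, the phosphoglucan water dikinase, rose by 0.62 ± 0.13 and DPE1 did not pass (0.30 ± 0.19).

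SWEET11, a sucrose exporter, rose steeply by day 4 and was far lower again on day 6. Its signals were 28.7 and 24.9 on day 2 against 603 and 674 on day 4 (4.58 ± 0.17, adjusted p = 7.97e-09). The mean was 72.7 on day 6 and 32.9 on day 10. SAG29, also named SWEET15 (1.20 ± 0.26, adjusted p = 0.00258), and SWEET17 (1.09 ± 0.09, adjusted p = 2.03e-06) rose too. SWEET16 (0.76 ± 0.29), SWEET1 (0.46 ± 0.25) and SWEETIE, which is caught by its name and is no SWEET transporter (0.20 ± 0.10), did not pass; 17 genes of the list were read and 6 tested.

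**Figure D3:**
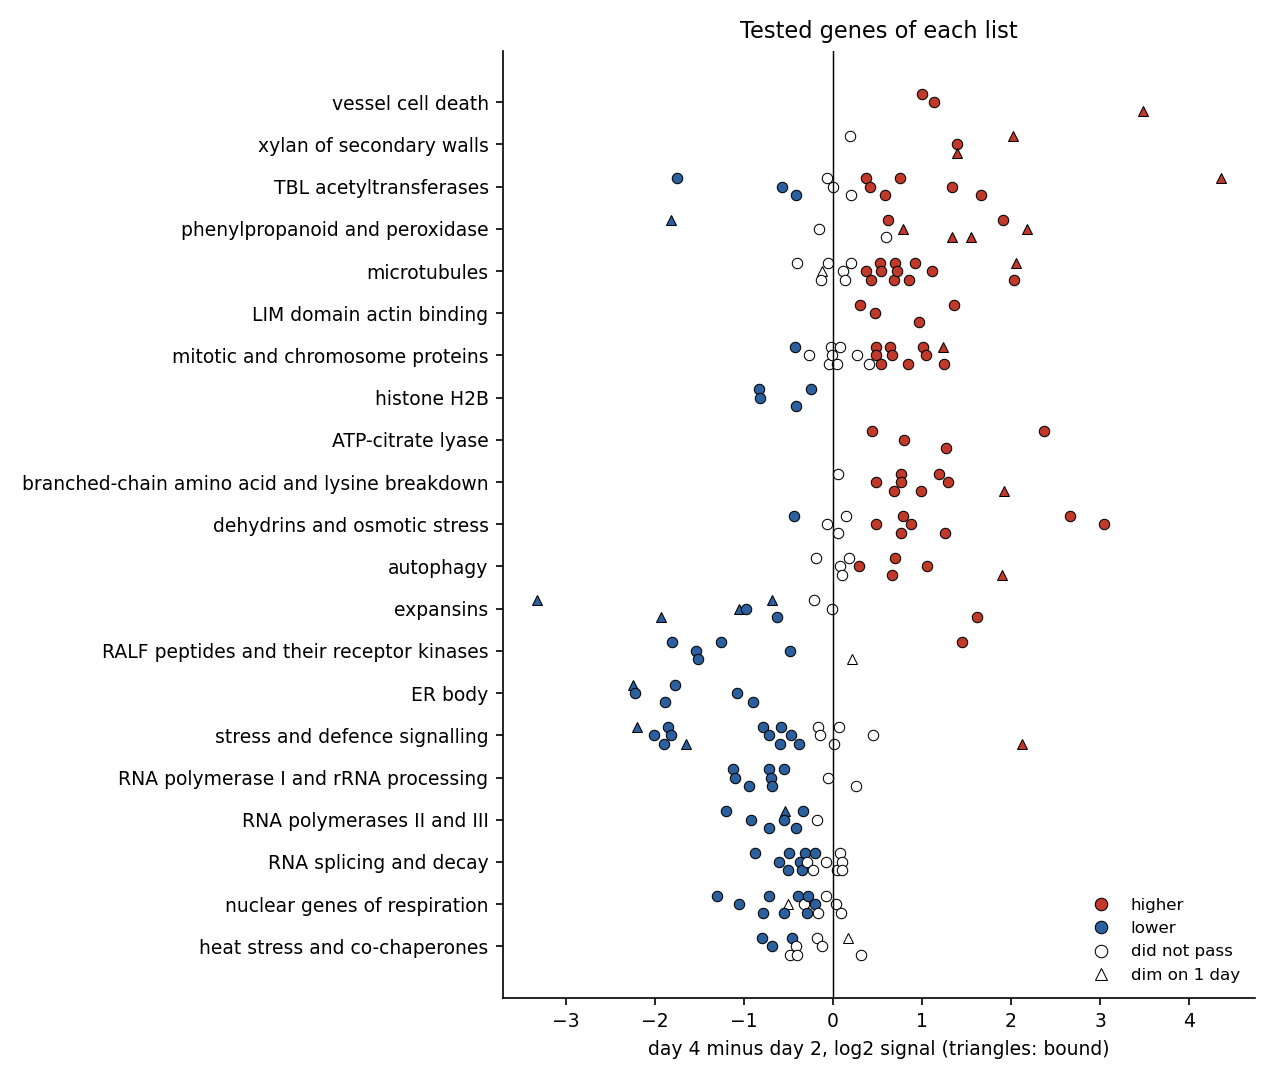
Difference between day 4 and day 2 in log2 signal (horizontal axis) for each tested gene of 21 lists (rows), red where higher, blue where lower and white where not called; triangles mark genes dim on 1 day, drawn at their bound. Wall, cytoskeleton, ATP-citrate lyase and amino acid breakdown lists lie mostly to the right of 0, and the expansin, RALF, ER body, RNA polymerase and respiration lists mostly to the left.

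The ER body genes fell together. ER bodies are compartments of the endoplasmic reticulum, known from Arabidopsis seedlings and roots, that store a beta-glucosidase used in defence. All 6 tested genes were lower (median -1.84). PYK10, that beta-glucosidase, had 1389 and 1223 on the day 2 arrays and 320.1 and 386 on those of day 4 (-1.89 ± 0.20, adjusted p = 2.06e-05), NAI2, needed to form the bodies, had 419 and 416 on day 2 against 77.7 and 102 on day 4 (-2.23 ± 0.19, adjusted p = 2.81e-06), and NAI1, the bHLH transcription factor that controls both, was at least 4.75-fold lower with 1 day 4 array dim. The jacalin-related lectins JAL34 (-1.78 ± 0.11), JAL22 (-1.08 ± 0.25) and JAL33 (-0.90 ± 0.20), of the family whose members bind PYK10, fell as well. For each of the 6, both day 4 arrays were below both day 2 arrays.

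Stress and defence regulators fell more often than they rose. Of 18 such genes drawn from the annotation's names, 12 fell and 1 rose (median -0.59). GRX480, a glutaredoxin induced by salicylic acid, had 278 and 276 on the day 2 arrays and 64.1 and 74.3 on those of day 4 (-2.01 ± 0.25, adjusted p = 6.57e-05). PUB23, a U-box ubiquitin ligase that damps immune signalling, was at least 4.62-fold lower with both day 4 arrays dim, and STZ, a zinc finger repressor of stress responses, had 128 and 97.2 on day 2 against 27.9 and 32.1 on day 4 (-1.90 ± 0.22, adjusted p = 3.35e-05). The relative PUB25 was the gene that rose, at least 4.37-fold with 1 day 2 array dim. Of 5 tau-class glutathione transferases, which conjugate glutathione to reactive compounds, 4 fell and 1 rose (median -0.82). GSTU22 had 1356 and 1223 on the day 2 arrays and 396 and 407 on those of day 4 (-1.68 ± 0.10, adjusted p = 2.22e-07) and GSTU26 fell by 1.99 ± 0.23. GSTU25 (-0.82 ± 0.15) and GSTU27 (-0.81 ± 0.17) fell by less, and GSTU18 rose (0.89 ± 0.27) but missed the threshold when replicate 2 of day 2 or either array of day 4 was left out.

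Genes that respond to cold, drought and heat are given here because the labelled temperature differed between the days. Of 11 dehydrin and osmotic stress genes 7 rose and 1 fell (median 0.77). COR47, a dehydrin induced by cold, had 65 and 67.6 on day 2 against 528 and 566 on day 4 (3.04 ± 0.12, adjusted p = 1.12e-08), and its mean was 629 on day 6 and 700.2 on day 10, both labelled 27 C as day 2 was. OSM34, an osmotin-like protein, had 152 and 77 on the day 2 arrays and 672 and 702 on those of day 4 (2.67 ± 0.22, adjusted p = 3.13e-06) and means of 1223 and 1429 on days 6 and 10. DI21 rose by 0.88 ± 0.12, from a mean of 360 on day 2 to 666 on day 4. Its mean was 463 on day 6 and 372 on day 10, nearer to that of day 2. An effect of temperature was not tested for any of these genes. DI19, a zinc finger protein induced by drought, rose by 1.25 ± 0.09, and AT2G46140, named late embryogenesis abundant 27, fell by 0.44 ± 0.10. Of 10 heat stress and co-chaperone genes 3 fell, a share near the 24.1% over all probe sets, and none rose (median -0.41), or 4 fell with arrays centred on their medians. These were Fes1A, a partner of cytosolic Hsp70 (-0.80 ± 0.12; mean 157 on day 6), HSA32 (-0.69 ± 0.19), which missed the threshold when replicate 2 of either day was left out, and Hop2 (-0.46 ± 0.11), lost when replicate 2 of day 2 was left out. Hsp70-2 had 468 and 311 on day 2 against 288 and 285 on day 4 and did not pass (-0.41 ± 0.16, adjusted p = 0.056). It was called lower with arrays centred on their medians, with the 60th percentile filter, with a pseudocount and with dim signals raised to the 40th percentile.

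Auxin genes went both ways. Of 6 auxin response genes in the narrower list, 3 rose and 3 fell (median 0.14). The repressor IAA29 had 19.9 and 18.8 on the day 2 arrays and 85.1 and 91.3 on those of day 4 (2.19 ± 0.14, adjusted p = 4.04e-07). Its day 2 signals were barely bright, as the 40th percentiles of those arrays were 19.8 and 17.3. IAA30 rose by 0.74 ± 0.17 and WES1, the auxin-conjugating enzyme also called GH3.5, by 1.01 ± 0.23. Falling members were IAA18 (-0.46 ± 0.09), GH3.17, another conjugating enzyme, with 692 and 612 on day 2 against 313 and 296 on day 4 (-1.10 ± 0.09, adjusted p = 2.33e-06), and GH3.3, at least 1.67-fold lower with both day 4 arrays dim. With further auxin genes named in the annotation the count was 4 higher and 5 lower of 11 (median -0.27, or -0.24 with dim genes at their bound); these added the auxin synthesis gene YUC4 (0.82 ± 0.24, lost when replicate 2 of either day was left out), the auxin glucosyltransferase IAGLU (-1.51 ± 0.23) and LBD16 (-0.46 ± 0.17, lost under 7 alternatives).

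Of 19 listed vascular regulators 1 was read, and the rest were not analysed here. PHV (PHAVOLUTA), a class III homeodomain-leucine zipper factor that favours xylem identity, had 258 and 259 on the day 2 arrays and 439 and 485 on those of day 4 (0.84 ± 0.09, adjusted p = 2.50e-05), with no overlap of the days. In a wider list of 7 vascular patterning genes 2 rose and 1 fell (median 0.10). LHW, a bHLH factor that promotes vascular cell divisions, rose by 0.43 ± 0.14 but did not pass without either array of day 2 or replicate 1 of day 4. CLE44, which encodes the peptide TDIF that keeps vascular stem cells from becoming xylem, had 299.9 and 302 on day 2 against 85.8 and 132 on day 4 (-1.50 ± 0.17, adjusted p = 2.56e-05). CLE41, which encodes the same peptide, had 40.7 and 51.3 on the day 2 arrays and 33.7 and 49.8 on those of day 4 and did not pass (-0.16 ± 0.32). Of 8 listed phloem genes 1 was read, AT3G03270, and it fell, with 379.9 and 400.1 on day 2 against 209.9 and 202 on day 4 (-0.92 ± 0.22, adjusted p = 0.00448); the other 7 were not analysed here, so phloem cells were not assessed.

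Of 64 tested genes of the plastid genome 16 rose, beside 23.5% of all probe sets, and none fell (median 0.37). The number that rose was 5 without replicate 2 of day 2, 8 without replicate 2 of day 4 and 9 with arrays centred on their medians or with no variance trend. The 3 largest rises were rbcL, the large subunit of Rubisco (0.82 ± 0.23), ndhA (0.68 ± 0.20) and accD, a subunit of plastid acetyl-CoA carboxylase (0.66 ± 0.11, adjusted p = 5.81e-04). Neither rbcL nor ndhA passed without 1 of the arrays of each day. Among 19 nuclear photosynthesis genes 9 rose and 2 fell (median 0.42, or 0.34 with dim genes at their bound). The antenna protein gene LHCB4.1 had 14.6 and 7.59 on the day 2 arrays and 104 and 80.6 on those of day 4, at least 4.94-fold higher, Rubisco activase (RCA) had 24.6 and 20 on day 2 against 60.2 and 66 on day 4 (1.51 ± 0.14, adjusted p = 5.63e-06), and the photosystem subunit PSBW was at least 1.27-fold higher; LHCB4.1 and PSBW were dim on both arrays of day 2. GSA1, of tetrapyrrole synthesis, fell by 0.62 ± 0.14 and the transporter TAAC fell by 0.81 ± 0.15.

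Ranked over all genes rather than lists, the largest rises among those bright on all 4 arrays were in loci that the annotation leaves unnamed. The 12 largest ran from 3.28 to 5.31. AT2G03200 had 35.7 and 37.2 on the day 2 arrays and 1347 and 1543 on those of day 4 (5.31 ± 0.17, adjusted p = 1.99e-09) and AT1G23460, read by a probe set of a type that can match several transcripts, had 31.2 and 22.6 on day 2 against 711 and 950.3 on day 4 (4.95 ± 0.16, adjusted p = 3.56e-09). AT2G04850 rose by 4.73 ± 0.35 with 20.5 and 46.8 on the day 2 arrays and 809 and 838 on those of day 4, and its difference was 4.14 without replicate 1 of day 2 and 5.33 without replicate 2. SWEET11 was the only named gene among the 12, and the others were AT3G59480, AT3G15450, AT3G10080, AT5G24490, AT3G15630, AT3G53190, AT1G03820 and AT5G02640. The 12 largest falls ran from -3.06 to -2.41. AT3G24240 had 766 and 867 on day 2 against 94 and 102 on day 4 (-3.06 ± 0.14, adjusted p = 4.03e-08) and EXO (EXORDIUM), a gene of brassinosteroid-promoted growth, 352 and 309.6 on the day 2 arrays and 41.1 and 39.7 on those of day 4 (-3.03 ± 0.20, adjusted p = 4.52e-07). The other named ones were ICL, the isocitrate lyase of the glyoxylate cycle (543 and 575 on day 2 against 99.6 and 72.7 on day 4; -2.71 ± 0.15, adjusted p = 1.44e-07), MSRB9, a methionine sulfoxide reductase (-2.69 ± 0.12), ZW9 (-2.82 ± 0.31) and ZCF37 (-2.49 ± 0.88, adjusted p = 0.0367), which missed the threshold without any 1 of the 4 arrays, with no filter or with no variance trend. AT3G28200, AT3G15810, AT5G23830, AT4G22212, AT2G02680 and AT1G74010 completed the 12.

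Among genes dim on both arrays of 1 day and bright on both of the other, TBL34 was 1 of the 8 largest rises by bound. The remaining 7 have no name in the annotation, led by AT5G26330 with 13 and 12.6 on the day 2 arrays and 959 and 1073 on those of day 4, at least 54.7-fold, AT1G70500 at least 47.5-fold and AT3G27200 at least 36.2-fold. AT1G79620, AT5G14510, AT4G27435 and AT1G24030 had bounds from 17.6- to 24.6-fold. In the other direction AT5G01870 led, with 964 and 1113 on day 2 against 20.5 and 18.4 on day 4, at least 52-fold lower, followed by AT2G03980 (at least 10-fold), EXPA9 and XTH19. AT5G26260, AT4G22470, AT3G16370 and AT5G06730 had bounds from 5.89- to 7.26-fold lower.

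The probe sets that changed by 2-fold or more kept medians on the day 4 side of the midpoint on days 6, 8 and 10. The signals of days 0, 6, 8 and 10 entered that choice only through the estimate of the spread. The 1015 probe sets that rose by 2-fold or more had a median log2 signal of 4.65 on day 0, 4.79 on day 2 and 6.81 on day 4, and then 7.13, 6.90 and 6.64 on days 6, 8 and 10. The 842 that fell by 2-fold or more had 6.48, 6.89 and 5.21, and then 5.28, 5.56 and 5.68. Single genes that rose differed in where they stood on day 0. Means on days 0, 2 and 4 were 1645, 638 and 1523 for DI19 and 591, 164 and 362 for ALN. For COR47 they were 29.8, 66.3 and 547. A rise from day 2 thus need not exceed the level of day 0. On day 6 the medians of both sets lay closer to day 4 than to day 2. Day 6 has the labelled temperature of day 2 but a longer time in induction medium, so its medians cannot separate temperature from time. Whether temperature affected these sets was not tested.

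**Figure D4:**
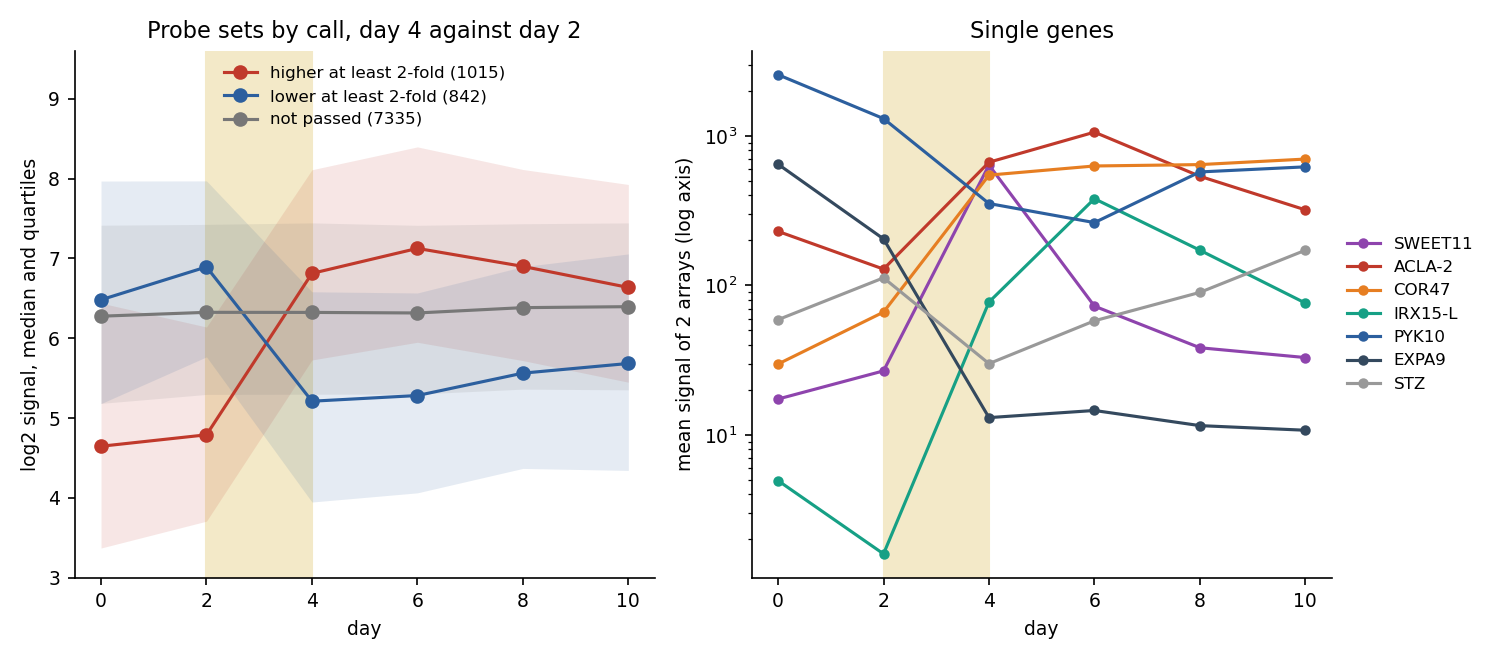
Left, median log2 signal on days 0 to 10 (vertical axis, bands show quartiles) of the 1015 probe sets higher by at least 2-fold, the 842 lower by at least 2-fold and the 7335 not called between days 2 and 4 (shaded step). Right, mean signal of the 2 arrays of each day on a log axis for 7 genes; SWEET11 peaks on day 4, STZ is lowest there, COR47 stays high, and IRX15-L is dim until day 2 and highest on day 6.

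Some genes turned back. Genes bright on all 4 arrays whose mean on every later day lay on the day 2 side of the midpoint numbered 159 among those that rose and 112 among those that fell. SWEET11 had the largest difference of them. The subtilase SBTI1.1 had 85.4 and 75.8 on the day 2 arrays and 330.3 and 333 on those of day 4 (2.04 ± 0.19, adjusted p = 5.63e-06) and means of 129 on day 6 and 29.6 on day 10. AT5G38160 (2.42 ± 0.19), AT4G13710 (2.28 ± 0.31) and AT2G01580 (2.26 ± 0.18) did likewise, as did AT1G71250 (2.08 ± 0.66), which did not pass when any of the 4 arrays was left out. On the falling side STZ returned from a mean of 30 on day 4 to 172 on day 10, and AT5G12880 (-1.89 ± 0.11) from 125 to 279.8.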

How the data were processed

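Signals of 12 Affymetrix ATH1 arrays were deposited as linear intensities, made by the authors with MAS5, as given per the submitters' processing notes. The version and target intensity of MAS5 are not given in the sources used here. Control probe sets were left out, values were taken to log2, and no further scaling was applied. Probe sets at or above their array's 40th percentile on both arrays of day 2 or of day 4 were tested with limma 3.58.1 in R 4.3.3 (lmFit and eBayes with a variance trend, over all 12 arrays, 6 residual degrees of freedom). The median standard error of a difference was 0.14. With 2 arrays a day, the number of arrays limits the precision. The fit was also run on simulated data with independent noise on each array and rises added on day 4. That run does not bear on whether the arrays of a day are independent.

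Of 22746 probe sets, 13513 are paired with 1 gene, 503 with several and 8730 with none in the platform annotation used here; 13484 matched a RefSeq gene. Among called probe sets 3113 had no single named gene. In 89 genes with several probe sets none had calls in opposite directions, and a gene takes its brightest probe set. Members and lists were chosen with earlier results of these data known, and some lists were drawn from gene names in the annotation with values in view. Named genes are the 12 largest rises and falls among those bright on all 4 arrays, the 8 each way by bound among those dim on 1 day, the 3 largest of each list in its main direction with 2 the other way, all members of the wall, cell death and vascular lists, and 8 that turned back. Others are named because their list is short or to complete a family. Planned lists without a tested gene, among them secondary wall cellulose and NAC factors, were not analysed here, nor were promoter motifs.

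Same-numbered arrays were checked for pairing. Alternatives changed the normalization, filter, pseudocount, variance trend, arrays in the fit and block, and left out each array in turn.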

Additional observations from a re-analysis of the deposited data

How the results depend on the processing

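Over the alternatives that kept all arrays, the count of higher probe sets ran from 2602 to 3413 and that of lower ones from 2855 to 3678, against 3284 and 3373. With arrays centred on their medians, the median difference of all probe sets moved from -0.01 to -0.06, and 43.3% of calls were higher, against 49.3%. Leaving out 1 array gave 2569 to 2784 higher and 2666 to 2762 lower probe sets, of which 952 to 1060 and 793 to 870 differed by 2-fold or more. With a filter at the 60th percentile, which removes dim genes, 659 probe sets were higher by 2-fold or more, against 1015. In that filter fewer genes were tested. The higher genes went from 3 to 1 for xylan and from 10 to 6 for the mitotic and chromosome list. They went from 6 to 3 for phenylpropanoid and peroxidase genes and from 9 to 3 for nuclear photosynthesis genes. The lower ones went from 6 to 3 for expansins and from 8 to 5 for UDP-glycosyltransferases. With a replicate block the counts were 3413 higher and 3488 lower, and 1015 and 845 at 2-fold or more. The same-numbered arrays of days 2 and 4 deviated together with a correlation of 0.137, above the 0.1 set to count as pairing. Over all pairs of days it ran from -0.028 to 0.137, and the main fit was kept without a block. Pairing of the arrays of days 2 and 4 is thus not excluded. The block took the plastid genome list from 16 to 36 higher genes. Of 300 called genes in the lists and rankings, 220 kept their call under every alternative that tested them, 80 lost it under at least 1, and none turned direction.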

Other observations

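UDP-glycosyltransferases, which attach sugars to hormones, phenylpropanoids and foreign compounds, fell more often than they rose. Of 20 tested, 8 fell and 3 rose (median -0.19), beside 24.1% and 23.5% of all tested probe sets; with dim signals raised to the 40th percentile 6 rose. UGT73D1 had 118 and 109 on day 2 against 22.1 and 26.1 on day 4 (-2.24 ± 0.25, limma adjusted p = 2.67e-05) and UGT76B1, which glycosylates a leucine-derived regulator of salicylic acid signalling, had 109.5 and 111 on the day 2 arrays and 21 and 28.4 on those of day 4 (-2.17 ± 0.26, adjusted p = 4.62e-05). In both genes the day 4 arrays lay below those of day 2. UGT73B4 was at least 4.02-fold lower, UGT88A1 rose (1.81 ± 0.13, adjusted p = 8.32e-07) and UGT85A4 was at least 1.77-fold higher. UGT72E2, which glycosylates monolignols, did not pass (-0.16 ± 0.23); it was chosen after its values were seen.

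Membrane traffic and protein quality control gave mixed counts. Of 12 genes of endoplasmic reticulum protein quality control 3 rose and 3 fell (median 0.14): DER2.1 (0.89 ± 0.10) and the calreticulin CRT1b (0.49 ± 0.09) rose and ATERDJ2B fell (-0.88 ± 0.16). BZIP60, a transcription factor of the unfolded protein response, was lower (-0.45 ± 0.15) but did not pass when any of the 4 arrays was left out. Of 11 ESCRT genes 3 rose and 1 fell (median 0.07), with VPS2.2 (0.84 ± 0.10) and VPS22 (0.66 ± 0.10) the largest; the fall, of VPS2.1 (-0.26 ± 0.07), was lost when replicate 2 of either day was left out. Of 8 tetraspanins 2 rose and 4 fell (median -0.22, or -0.01 with the dim gene at its bound), from TET2 (-1.39 ± 0.32) to TET5 (1.11 ± 0.18); 2 fell without replicate 1 of day 4, and 1 rose without replicate 2 of day 4. Of 7 exocyst genes 2 rose, SEC6 (0.66 ± 0.19) and SEC5A (0.38 ± 0.14); SEC6 missed the threshold when replicate 1 of day 2, or 2 of day 4, was left out, and SEC5A was lost under 7 alternatives, so that none of the list passed without replicate 2 of day 4. Among the membrane subunits of the vacuolar proton pump, VHA-A1 rose (0.64 ± 0.14), VHA-A2 fell (-0.41 ± 0.11, lost without replicate 2 of day 4) and VHA-A3 did not pass (-0.09 ± 0.11).

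Few genes named for brassinosteroids were read. The receptor BRL1 (0.14 ± 0.14) did not pass, nor did BRH1, which had 1 day 2 array dim. BIN4, which matched the list by its name and works in DNA topology during endoreduplication, rose (0.39 ± 0.11) but missed the threshold when replicate 1 of either day was left out. The 2 MYB factors tested, MYBC1 (-0.22 ± 0.16) and AT5G47390 (0.16 ± 0.13), did not pass. Of 3 cytochromes P450, CYP71B28 was at least 2.46-fold higher, CYP71B6 fell (-0.57 ± 0.12) and CYP84A4 did not pass.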
